A study of Mus musculus with 12 samples.

Results

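The genes described are those of the plasma proteins of the complement and coagulation systems, chosen as 49 mouse symbols by their place in the pathways. Of these, 48 had a row among the 35275 genes of the deposited liver expression table, and Klkb1 was not analysed here. The set holds the serine proteases, cofactors and structural proteins of both cascades with the inhibitors that restrain them. Liver RNA was sequenced from wild-type (WT) mice and from Pctp-/- mice, which lack phosphatidylcholine transfer protein (PC-TP) in the whole body, so that cells other than hepatocytes lacked it too. Each genotype was fed either chow or a diet deficient in methionine and choline (MCD), which produces a fatty and injured liver, giving 4 groups of 3 mice and 12 libraries. The tissue was whole liver of male mice, and the age and strain of these animals and the weeks on the diet are not given in the sources used here.

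Hepatocytes make most of the complement and clotting proteins of the blood. In complement, C1 or the mannose-binding lectins with their MASP proteases cleave C4 and C2, the cascade converges on C3, and C5 to C9 then assemble into the pore that pierces a target membrane. In coagulation, a chain of proteases ends in thrombin, which turns fibrinogen into fibrin, while antithrombin, heparin cofactor II and protein C hold it back and plasmin dissolves the clot. The promoters of many of these genes are known to bind the liver factors HNF4 and C/EBP, and some are acute-phase genes that respond to STAT3.

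Values were FPKM, that is, fragment numbers corrected for how long a gene is and how deeply its library was sequenced, so levels of different genes can be set side by side. Uniquely mapped reads ranged from 30486576 to 55179468 per library. The uniquely mapped share was 77.6 to 79.4% in the 6 chow libraries and 85.7 to 87.5% in the 6 MCD libraries, so the diets also differed in sequencing quality, and an effect of diet and an effect of sequencing cannot be told apart. Pctp itself was at 1.21 to 2.65 FPKM in WT and 0.330 to 0.566 FPKM in Pctp-/- livers on chow, and at 3.61 to 7.90 FPKM and 0.156 to 0.329 FPKM on MCD, without overlap on either diet. All 8 hepatocyte markers were expressed, with Alb at a mean of 27790 FPKM in WT on chow, and the adipocyte markers Adipoq, Plin1 and Lep were under 0.1 FPKM in all of them.

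Together the 48 genes made up 5.12% ± 0.134 of all FPKM in WT livers (SD, n = 3) and 5.02% ± 0.265 in Pctp-/- livers on chow (SD, n = 3). On MCD the share was 3.30% ± 0.221 in WT livers (SD, n = 3) and 3.82% ± 0.190 in Pctp-/- livers (SD, n = 3). Every MCD library was below every chow library, and the 3 Pctp-/- MCD libraries, at 3.64, 3.79 and 4.02%, were above the 3 WT MCD libraries, at 3.15, 3.19 and 3.55%. The exact permutation test, two-sided, gave p = 0.1 for the diet in each genotype and for the genotype on MCD, which is the smallest p that 3 mice against 3 allow, and p = 0.7 for the genotype on chow. The share of albumin, a liver product outside the set, moved the other way with diet, from 5.67% to 8.38% of all FPKM in WT and from 5.71% to 11.1% in Pctp-/- livers.

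**Figure D1:**
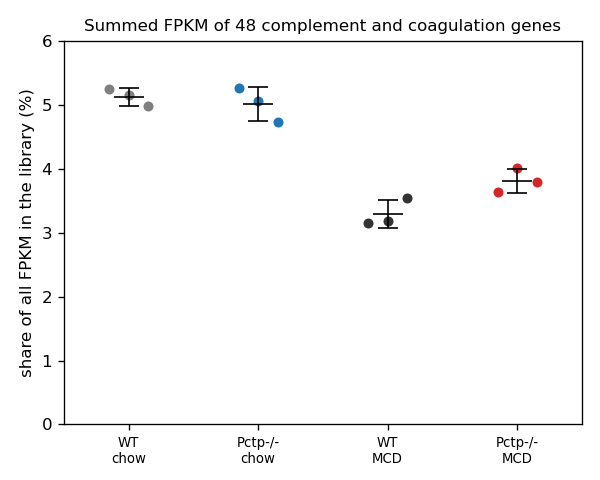
Summed FPKM of the 48 complement and coagulation genes as a percentage of all FPKM in each library (points), with the mean and SD of 3 mice per group (bars). The chow libraries lie between 4.74 and 5.27% and the MCD libraries between 3.15 and 4.02%.

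By mean FPKM over the 12 libraries, the most abundant members were the fibrinogen chains Fgb (2437 FPKM) and Fgg (2110 FPKM) and the alpha-1-microglobulin and bikunin precursor Ambp (2017 FPKM). The factor D gene Cfd, a product of fat tissue, was at 0 to 0.28 FPKM, too low to be tested, and the other 47 members were tested. The factor B gene Cfb (1.14 FPKM in WT on chow), C2 (4.60 FPKM) and the properdin gene Cfp (8.91 FPKM) were the lowest of those. Cfb and C2 overlap Gm20547 on the same strand, and their longest transcripts match it at 100% identity over 2248 and 1051 bases. How reads were shared with Gm20547 is not given in the sources used here, so the levels and tests of Cfb and C2 are uncertain. Summed by role on chow in WT, the clotting factors held 8255 FPKM, the broad protease inhibitors 4501, the fibrinolysis genes 3974, C3 and the alternative pathway 2133, the anticoagulants 1909, the terminal components 1310 ± 103 (SD, n = 3), the classical and lectin pathway 1184, the complement regulators 950.9 and the kininogens 868.5.

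The MCD diet lowered more of these genes than it raised in both genotypes. In WT livers 26 of the 47 members fell, 6 rose and 15 were not called, at an adjusted p under 0.05 from limma on log2(FPKM + 1). In Pctp-/- livers 22 fell, 8 rose and 17 were not called. The diet moved 57% of all 12466 tested genes in WT and 50.3% in Pctp-/- livers, so a call by itself is common, but in WT 34.5% of all tested genes rose and 22.5% fell, and in Pctp-/- livers 26% rose and 24.4% fell. The median log2 fold change of the members was -0.46 in WT against 0.11 over all tested genes, and -0.36 in Pctp-/- livers against 0.04. Relative to all tested genes the members' median in WT was thus -0.57, and it was -0.60 after the libraries were rescaled by median-of-ratios, which took the median of all genes to 0.01. With that rescaling 2 members rose and 30 fell in WT. A liver with fewer hepatocytes and hepatocytes with less of these RNAs cannot be told apart in whole tissue. Of 8 hepatocyte markers, 3 fell and 2 rose in each genotype, while their summed FPKM, most of it Alb, was 40500 to 45100 in WT on chow and 53900 to 60600 in WT on MCD. Markers of some other cells rose on MCD in WT. These were 6 of 7 Kupffer cell, 5 of 5 monocyte-derived macrophage, 5 of 6 stellate cell and 2 of 2 neutrophil markers tested. In Pctp-/- livers 2, 4, 3 and 2 of them rose. Of 6 sinusoidal endothelium markers, 3 rose in WT and 0 in Pctp-/- livers. Of 3 tested cholangiocyte markers, 0 were called in WT and 1 fell in Pctp-/- livers. Of 3 tested lymphocyte markers, 0 were called in either genotype. The part of these cells in the result was not tested.

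**Figure D2:**
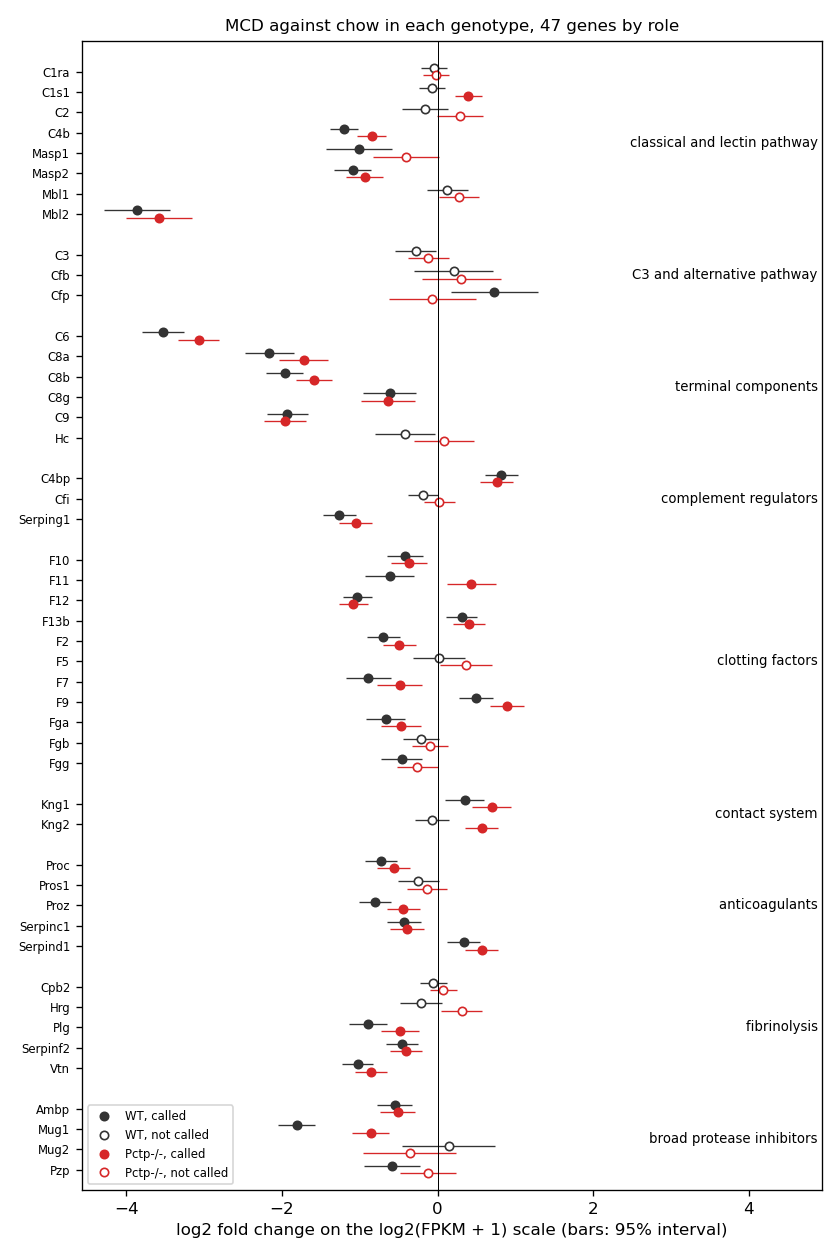
Difference between MCD and chow on the log2(FPKM + 1) scale for the 47 tested members in WT (black) and Pctp-/- (red) livers, grouped by role. Bars are 95% intervals, filled points passed an adjusted p of 0.05 from limma, and Mbl2, C6, C8a, C8b and C9 lie farthest to the left in both genotypes.

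The terminal components, which form the membrane attack complex, were the role with the deepest fall. Their summed level dropped to 482 ± 47.7 FPKM (SD, n = 3) in WT on MCD, which was 36.8% of that on chow, and to a mean of 519 FPKM in Pctp-/- livers, 41.2% of that on chow, with 511 to 534 FPKM among the 3 libraries. Of its 6 members C6, C8a, C8b, C8g and C9 fell in both genotypes. The complement C5 gene Hc did not pass in either genotype, with log2 differences of -0.42 (adjusted p = 0.057 from limma) in WT and 0.08 in Pctp-/- livers, although median-of-ratios scaling gave -0.56 (adjusted p = 0.015) in WT.

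C6, the component that binds C5b to start the complex, was at 91.7, 103.3 and 82.8 FPKM in WT and 80.4, 76.8 and 65.8 FPKM in Pctp-/- livers on chow. The MCD libraries of C6 held 7.37, 6.16 and 7.81 FPKM in WT and 8.58, 8.43 and 6.89 FPKM in Pctp-/- livers. All 6 MCD libraries were far below all 6 chow libraries, and within MCD the genotypes overlapped. The log2 fold change was -3.53 (SE 0.12, adjusted p = 3.3e-09 from limma) in WT and -3.07 (SE 0.12, adjusted p = 1.2e-08) in Pctp-/- livers. C6 was thus left at 7.68% of its chow level in WT and at 10.7% in Pctp-/- livers.

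C8 is a complex of 3 chains from 3 genes, of which alpha (C8a) and beta (C8b) insert into the membrane and gamma (C8g) is a lipocalin bound to alpha. C8a was at 227.5, 229.3 and 228.0 FPKM in WT on chow and 64.4, 43.4 and 45.2 FPKM in WT on MCD, and at 210.8, 223.6 and 194.0 FPKM and 61.7, 73.6 and 54.1 FPKM in the same order in Pctp-/- livers. C8b was at 174.6, 194.4 and 164.8 FPKM in WT on chow and 40.5, 43.6 and 50.2 FPKM in WT on MCD, and in Pctp-/- livers at 177.3, 176.0 and 151.9 FPKM on chow and 57.8, 57.7 and 50.2 FPKM on MCD. In both genes the diets were widely separated, and the genotypes overlapped on MCD. C8a fell by 2.16 on the log2 scale (SE 0.15, adjusted p = 3.8e-07 from limma) in WT and by 1.72 in Pctp-/- livers, and C8b by 1.97 and 1.59. The gamma chain gene moved less, with C8g at -0.61 in WT (adjusted p = 0.0054 from limma) and -0.64 in Pctp-/- livers, so that its mean stayed at 65.2% and 64.3% of chow while C8a was left at 22.3% and 30.1%. C8a and C8b are neighbours on chromosome 4 (GRCm38, C8b from 104766317 to 104804548 on the plus strand and C8a from 104815679 to 104876398 on the minus strand), and C8g lies on chromosome 2.

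C9, whose copies form the ring of the pore, was at 372, 420.4 and 397 FPKM in WT and 356, 404 and 361 FPKM in Pctp-/- livers on chow. With MCD feeding C9 was at 105.8, 86.8 and 119.4 FPKM in WT and 92.9, 107.3 and 86.0 FPKM in Pctp-/- livers. The diets were separated and the genotypes overlapped on both. The fold changes of C9 were -1.93 (SE 0.12, adjusted p = 2.4e-07 from limma) in WT and -1.96 (SE 0.12, adjusted p = 2.7e-07) in Pctp-/- livers.

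**Figure D3:**
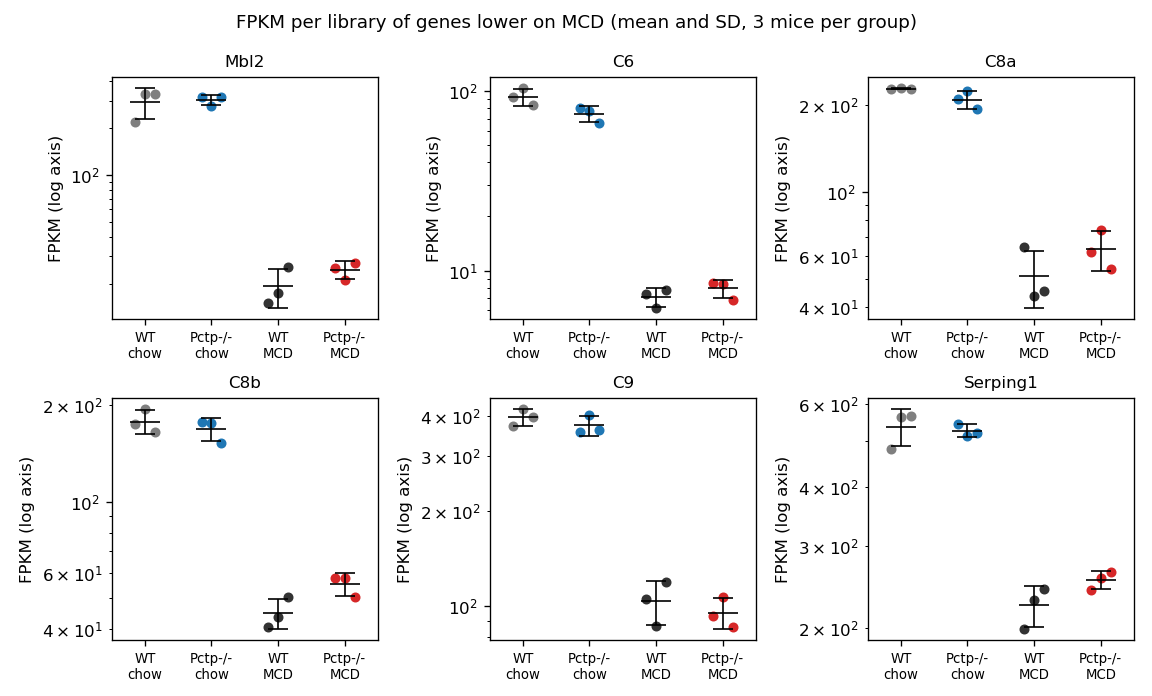
FPKM of 6 members that fell on MCD in both genotypes, in each library (points, log axis), with the mean and SD of 3 mice per group (bars). In each panel all MCD libraries lie below all chow libraries, from Mbl2, left at 6.57% of its chow mean in WT, to Serping1, left at 41.6%.

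In the classical and lectin pathway, the 8 members summed to 54.8% of chow on MCD in WT and 64.1% in Pctp-/- livers. Mbl2, a mannose-binding lectin that recognises microbial sugars, had the largest fall of all 47 members. It was at 218, 332.7 and 333.0 FPKM in WT and 315.2, 276.0 and 318.6 FPKM in Pctp-/- livers on chow. The MCD values of Mbl2 were 15.1, 17.5 and 25.5 FPKM in WT and 25.4, 21.0 and 27.3 FPKM in Pctp-/- livers. The lowest chow library was thus many times the highest MCD library, and the genotypes overlapped on each diet. Its log2 fold change was -3.87 (SE 0.20, adjusted p = 5e-08 from limma) in WT and -3.58 (SE 0.20, adjusted p = 1.2e-07) in Pctp-/- livers. The other mannose-binding lectin, Mbl1, had 212 FPKM in WT on chow and 232 FPKM on MCD and was not called in either genotype, with estimates of 0.13 and 0.27. The proteases that travel with these lectins fell less than Mbl2, with Masp2 at -1.09 in WT and -0.94 in Pctp-/- livers and Masp1 at -1.01 in WT, and Masp1 in Pctp-/- livers did not pass (-0.41, adjusted p = 0.098 from limma). Masp2 overlaps Tardbp on the opposite strand, and strand use in the counting is not given in the sources used here.

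C4b, the substrate of the C1s and MASP2 proteases, fell by 1.20 in WT and by 0.84 in Pctp-/- livers on the log2 scale. The longest C4b transcript is 96.0% identical to C4a over 5378 bases, so how reads were shared between these genes is uncertain, and C4a was also lower on MCD in WT (-2.43, adjusted p = 0.0052 from limma). The C1 protease genes have close copies too, with C1ra 97.9% identical to C1rb over 2432 bases and C1s1 96.0% identical to C1s2 over 2644 bases. The split of reads within these pairs is likewise uncertain. Of the C1 proteases, C1ra was not called in any comparison. C1s1 was called only in Pctp-/- livers, where it rose by 0.39 (SE 0.08, adjusted p = 0.0014 from limma), while in WT its estimate was -0.07, and the difference between these responses did not pass (0.47, adjusted p = 0.12). C2 was not called in either genotype.

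C3, on which all complement pathways meet, had 2123 ± 122 FPKM (SD, n = 3) in WT on chow and 1748 ± 91.8 FPKM (SD, n = 3) on MCD. Its WT groups did not overlap, but the difference of -0.28 did not pass (adjusted p = 0.066 from limma), and in Pctp-/- livers the groups overlapped at -0.12. After median-of-ratios scaling or quantile normalization C3 passed in WT (-0.41 and -0.47, adjusted p = 0.035 and 0.0065). Cfb was not called in either genotype. Cfp, which stabilises the C3 convertase and is known as a leukocyte product, rose by 0.73 (SE 0.26, adjusted p = 0.029 from limma) in WT only, with overlapping groups at 5.62 to 11.9 FPKM on chow and 11.7 to 19.0 FPKM on MCD, and had -0.07 in Pctp-/- livers. The difference of these responses was -0.80 (adjusted p = 0.32 from limma). The summed FPKM of 7 Kupffer cell markers spanned 58.7 to 94.7 in WT and 49.9 to 134 in Pctp-/- livers on chow. On MCD it spanned 148 to 255 in WT and 113 to 125 in Pctp-/- livers, so only the WT diets were separated. The diet raised 6 of the 7 markers in WT and 2 of 7 in Pctp-/- livers, with median log2 fold changes of 1.19 and 0.40. Markers of some other leukocytes were called higher on MCD in both genotypes. Of the tested monocyte-derived macrophage markers, 5 of 5 rose in WT and 4 of 5 in Pctp-/- livers. Of the tested neutrophil markers, 2 of 2 rose in each genotype, with a median log2 fold change of 3.128 in WT and 1.525 in Pctp-/- livers. Of 3 tested lymphocyte markers, 0 were called in either. The part of these cells in the Cfp result was not tested.

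Among the complement regulators, Serping1 and C4bp moved in opposite directions. Serping1, the C1 inhibitor that also blocks factor XII and kallikrein, fell by 1.26 in WT (adjusted p = 1e-06 from limma) and by 1.05 in Pctp-/- livers on the log2 scale. C4bp, which binds C4b and speeds its decay, rose the most of the members in WT. It was at 124.6, 133.3 and 130.4 FPKM in WT and 136.6, 119.1 and 111.4 FPKM in Pctp-/- livers on chow. The MCD libraries of C4bp held 229.2, 211.9 and 247.2 FPKM in WT and 213.3, 216.8 and 191.5 FPKM in Pctp-/- livers. Every MCD library was above every chow library. The rise was 0.82 (SE 0.10, adjusted p = 2.4e-05 from limma) in WT and 0.76 (SE 0.10, adjusted p = 5.7e-05) in Pctp-/- livers. Cfi, the protease that cleaves C3b and C4b, was not called.

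The clotting factors summed to 74.5% of chow on MCD in WT and 82.7% in Pctp-/- livers. F12 (factor XII), which starts the contact route, fell in both genotypes, at -1.03 in WT and -1.08 in Pctp-/- livers, as did F7 (factor VII) of the extrinsic route, at -0.89 and -0.48. So did the genes of the common pathway F10 (-0.42 and -0.36) and F2, which encodes prothrombin (-0.70 and -0.49). F5, the cofactor of factor X, was not called in either genotype.

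F9, the factor whose loss causes haemophilia B, and F13b, the carrier subunit of the fibrin-crosslinking enzyme, rose in both genotypes. F9 was at 56.3, 50.9 and 54.8 FPKM in WT and 47.9, 50.4 and 57.5 FPKM in Pctp-/- livers on chow. On MCD it was at 73.4, 73.6 and 82.4 FPKM in WT and 92.3, 107.6 and 91.3 FPKM in Pctp-/- livers. The diets did not overlap, and on MCD neither did the genotypes. F9 rose by 0.49 (SE 0.10, adjusted p = 0.0011 from limma) in WT and by 0.89 (SE 0.10, adjusted p = 2e-05) in Pctp-/- livers, and neither the genotype difference on MCD (0.34, adjusted p = 0.13) nor that of the responses (0.40, adjusted p = 0.21) passed. F13b rose by 0.31 and 0.40.

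The 3 fibrinogen chains, which pair in equal numbers in the protein and whose genes lie side by side on chromosome 3 (GRCm38, from 83007724 to 83049863), did not pass alike. Fga was at 1802, 1673 and 1513 FPKM in WT on chow and 946, 977 and 1225 FPKM in WT on MCD, and fell in both genotypes, by 0.67 and 0.47 on the log2 scale. Fgg was at 2306, 2335 and 2332 FPKM in WT on chow and 1401, 1668 and 2065 FPKM on MCD, and in Pctp-/- livers at 2367, 2487 and 2346 FPKM and 2038, 2000 and 1971 FPKM. It passed in WT (-0.46, adjusted p = 0.0064 from limma) and not in Pctp-/- livers (-0.26, adjusted p = 0.092, against 5.9e-04 with quantile normalization), although the diets did not overlap in either genotype. Fgb was at 2480, 2606 and 2657 FPKM in WT on chow and 2013, 2104 and 2618 FPKM on MCD, and in Pctp-/- livers at 2580, 2541 and 2507 FPKM and 2466, 2453 and 2218 FPKM. Its WT groups overlapped, and it passed in neither genotype (-0.21 and -0.10). Whether the chains differed from each other in their response was not tested.

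The kininogens, from which kallikrein releases bradykinin, were the only role whose summed level was higher on MCD, at 123% of chow in WT and 161% in Pctp-/- livers. Kng1 was at 657, 818 and 808 FPKM in WT and 733, 723.5 and 705 FPKM in Pctp-/- livers on chow. On MCD it was at 870, 935 and 1101 FPKM in WT and 1091, 1272 and 1144 FPKM in Pctp-/- livers. All MCD libraries exceeded all chow libraries. Kng1 rose by 0.35 (SE 0.12, adjusted p = 0.022 from limma) in WT and by 0.69 (SE 0.12, adjusted p = 3.8e-04) in Pctp-/- livers.

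Of the anticoagulants, protein C (Proc), protein Z (Proz) and antithrombin (Serpinc1) fell in both genotypes, at -0.73, -0.80 and -0.43 in WT and -0.57, -0.44 and -0.39 in Pctp-/- livers. Serpind1, which encodes heparin cofactor II, another inhibitor of thrombin, instead rose. It was at 222.9, 227.5 and 238.8 FPKM in WT and 253.2, 209.4 and 215.9 FPKM in Pctp-/- livers on chow, and at 265.2, 286.3 and 322.0 FPKM and 337.2, 338.7 and 328.1 FPKM on MCD. The diets did not overlap, and on MCD the Pctp-/- libraries lay above those of WT. Its rise was 0.34 (SE 0.10, adjusted p = 0.010 from limma) in WT and 0.57 (SE 0.10, adjusted p = 4.5e-04) in Pctp-/- livers. Pros1, the cofactor of protein C, was not called. Serpinc1 overlaps Zbtb37 on the opposite strand, and its longest transcript matches Zbtb37 at 100% identity over 2942 bases. Strand use in the counting is not given in the sources used here, so the level of Serpinc1 is uncertain. With median-of-ratios scaling the rises of Serpind1, F13b, Kng1 and Cfp in WT no longer passed, and with quantile normalization the falls of Fga and Serpinc1 in both genotypes, of Pzp in WT and of Plg in Pctp-/- livers no longer did. Leaving out WT MCD replicate 3 ended the calls of Cfp, F13b and Kng1 in WT (adjusted p = 0.11, 0.056 and 0.094 from limma), leaving out WT chow replicate 2 those of Cfp and F13b (0.13 and 0.057), leaving out WT MCD replicate 1 that of Cfp (0.059) and leaving out WT chow replicate 1 that of Kng1 (0.079).

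In fibrinolysis, plasminogen (Plg) fell by 0.89 in WT and 0.48 in Pctp-/- livers on the log2 scale and its inhibitor antiplasmin (Serpinf2) by 0.46 and 0.40. Vtn, the vitronectin that holds PAI-1 active, fell by 1.03 and 0.86. Cpb2 and Hrg were not called. Plg overlaps Slc22a3 on the opposite strand, with 422 bases at 100% identity, and strand use in the counting is not given in the sources used here. Among the broad protease inhibitors Ambp, at 2057, 2487 and 2533 FPKM in WT on chow and 1510, 1645 and 1660 FPKM on MCD, fell by 0.55 in WT. In Pctp-/- livers Ambp was at 2332, 2479 and 2429 FPKM on chow and 1605, 1662 and 1806 FPKM on MCD and fell by 0.51, and the diets did not overlap in either genotype. Pzp, a pregnancy zone protein of the alpha-2-macroglobulin family, passed in WT only (-0.58, adjusted p = 0.0098 from limma, against -0.13 in Pctp-/- livers), a difference of responses that did not pass (0.46, adjusted p = 0.38).

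The 250 bases before the RefSeq start (GRCm38.p6, read on the strand of the gene) are shown for the members with the largest falls and rises in both genotypes, since they belong to genes of the same tissue that moved in opposite directions. Those of Mbl2 lie at chr19:30232678-30232927 on the plus strand, of C6 at chr15:4726960-4727209 on the plus strand, of C4bp at chr1:130661619-130661868 on the minus strand and of F9 at chrX:59999214-59999463 on the plus strand. Capitals mark matches, on either strand, to TTGCNNAA (C/EBP), TTCNNNGAA (STAT) or CAAAGTCCA (HNF4).
Mbl2: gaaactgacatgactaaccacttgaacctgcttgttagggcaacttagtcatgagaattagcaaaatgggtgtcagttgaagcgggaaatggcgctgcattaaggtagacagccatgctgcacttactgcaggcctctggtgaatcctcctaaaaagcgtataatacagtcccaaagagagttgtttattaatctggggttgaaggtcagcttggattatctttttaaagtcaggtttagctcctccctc
C6: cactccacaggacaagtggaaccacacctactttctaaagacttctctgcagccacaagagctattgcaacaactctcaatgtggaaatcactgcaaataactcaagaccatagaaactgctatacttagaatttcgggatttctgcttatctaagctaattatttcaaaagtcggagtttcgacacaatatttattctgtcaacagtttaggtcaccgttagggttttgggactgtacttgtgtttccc
C4bp: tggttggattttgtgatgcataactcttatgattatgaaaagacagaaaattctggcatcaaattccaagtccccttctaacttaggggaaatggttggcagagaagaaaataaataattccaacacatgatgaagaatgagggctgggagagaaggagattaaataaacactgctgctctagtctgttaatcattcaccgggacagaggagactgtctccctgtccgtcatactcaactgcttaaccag
F9: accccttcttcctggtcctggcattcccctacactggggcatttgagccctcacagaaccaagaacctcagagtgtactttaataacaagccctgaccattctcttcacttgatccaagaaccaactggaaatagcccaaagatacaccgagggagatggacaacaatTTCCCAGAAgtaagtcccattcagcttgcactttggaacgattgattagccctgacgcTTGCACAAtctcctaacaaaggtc
The F9 window held the STAT letters 82 bases and the C/EBP letters 24 bases before the start, and the Mbl2, C6 and C4bp windows held none of the 3 motifs.

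RefSeq windows of 300 bases, 250 before and 50 after the start, were matched by symbol for 39 of the 48 members, as 41 windows. No window was matched for C2, C4b, Cfb, Cfi, Kng1, Masp1, Plg, Proc and Serping1. The C/EBP letters stood in 12 of the 41 windows (29.3%), among them those of C9, F9, F11, Kng2 and the 2 fibrinogen genes Fga and Fgb, against 10.8% of all 32851 windows in the table. The STAT letters stood in 8 windows (19.5%, against 8.30%) and the HNF4 letters in 0 windows (against 0.475%). The C/EBP and STAT sets each included members that rose, fell or were not called on MCD, and a match of letters is no evidence that a factor binds there.

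Of a list of 15 liver regulators, which holds C/EBP, STAT and HNF4 genes and others with no motif named here, 11 fell and 1 rose in WT, and 8 fell and 3 rose in Pctp-/- livers. Cebpb and Cebpa, which encode C/EBP proteins, fell by 2.40 and 2.04 in WT and by 3.25 and 1.48 in Pctp-/- livers on the log2 scale. Onecut1 fell by 2.78 in WT and had -1.12 in Pctp-/- livers (adjusted p = 0.19 from limma), with 4.72 to 45.4 FPKM among the 3 WT chow libraries, and Esr1 rose by 0.90 and 0.64. Hnf4a (-1.10 and -0.87), named here after its values were seen, fell in both genotypes, and Stat3 (-0.03 and -0.12), likewise, was not called.

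Other genes of these pathways did not follow the members. Of 24 tested complement genes outside the set, 15 rose and 3 fell on MCD in WT, and 11 rose and 2 fell in Pctp-/- livers. The largest rises were of the leukocyte integrin genes Itgb2 (1.73 in WT and 1.66 in Pctp-/- livers) and Itgax (1.53 and 1.71) and of the macrophage complement receptor Vsig4 (1.66 and 1.15). Of 23 tested coagulation genes outside the set, 11 rose and 5 fell in WT and 11 rose and 4 fell in Pctp-/- livers, among them Anxa2, a plasminogen receptor subunit (3.78 and 2.52), and Hpn, a hepatocyte protease that activates factor VII (-1.33 and -1.15). Ggcx, the carboxylase that makes the vitamin K dependent factors functional, fell by 0.76 in WT and by 0.86 in Pctp-/- livers.

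Acute-phase genes with their companions, and other liver plasma proteins, were divided in direction. Of 20 genes in the acute-phase list, which also holds relatives such as Saa4, 9 rose and 5 fell in WT. In Pctp-/- livers 11 of them rose and 2 fell. Apcs, the mouse acute-phase pentraxin serum amyloid P, went from 73.0 ± 13.1 FPKM (SD, n = 3) to 3147 ± 975 FPKM (SD, n = 3) in WT, a log2 difference of 5.37, and Lcn2 rose by 5.66, whereas Saa4 and Serpina3n fell by 1.35 and 0.95. Of 24 other hepatocyte plasma proteins, 4 rose and 9 fell in WT and 8 rose and 7 fell in Pctp-/- livers, with A1bg at 3.74 and Serpina1a at -1.36 in WT. The medians of the 2 lists in WT were 0.47 and -0.14, against -0.46 for the complement and coagulation members.

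The knockout on chow left this set without a called gene. None of the 47 members passed in limma's test, 2 had an unadjusted p under 0.05, and 0.136% of all tested genes were called. The median of the members was -0.02, against 0.01 over all tested genes. The 95% interval of the log2 difference lay within 0.5 of 0 for 39 members and within 1 of 0 for 46. The members with an unadjusted p under 0.05 were Mug2 (0.79, unadjusted p = 0.014, adjusted p = 0.48) and C6 (-0.31, unadjusted p = 0.026, adjusted p = 0.62). The groups did not overlap for 2 members that were higher and 4 that were lower, against 10.6% of all tested genes in either direction.

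On MCD, 3 of the 47 members were higher in Pctp-/- than in WT livers and 0 were lower, against 0.818% of all tested genes called in either direction and 0.297% called higher. They were Mug1, F11 and Kng2. The median of the members was 0.20, against -0.09 over all tested genes, and 44 of the 47 estimates were above 0, against 29.7% of all tested genes. After median-of-ratios scaling the median was 0.31 against -0.01. The groups did not overlap for 17 members that were higher and 1, Cfp, that was lower, against 26.6% of all tested genes in either direction. The 24 other hepatocyte plasma proteins lay on the same side, with 21 estimates above 0, a median of 0.28 and 1 call (Itih1, 0.43, adjusted p = 0.047 from limma), and Alb ran from 41400 to 46340 FPKM in the WT libraries and from 54600 to 61590 FPKM in those of Pctp-/- livers. In whole tissue the summed hepatocyte markers, most of it Alb, held 68200 to 74500 FPKM in Pctp-/- against 53900 to 60600 FPKM in WT. Of these 8 markers, 5 had estimates above 0 and 3 below, and 0 were called. The summed Kupffer cell markers were lower (113 to 125 against 148 to 255 FPKM), with 7 of 7 estimates below 0 and 0 called. The part of these cells in the differences between genotypes was not tested.

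The 3 calls did not hold in every setting. With only the 6 MCD libraries in the fit, 0 members passed, and without replicate 2 of the Pctp-/- MCD group 0 passed, while quantile normalization gave 6, all higher. Mug1 alone was left with no filter, and without replicate 3 of the Pctp-/- MCD group or replicate 2 of the WT MCD group. Kng2 did not pass with no trend of variance on mean (adjusted p = 0.055 from limma). Nor did Kng2 pass without WT MCD replicate 1 (0.096), WT chow replicate 2 (0.055) or Pctp-/- chow replicate 2 (0.056). F11 did not pass without WT MCD replicate 3 (0.059).

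**Figure D4:**
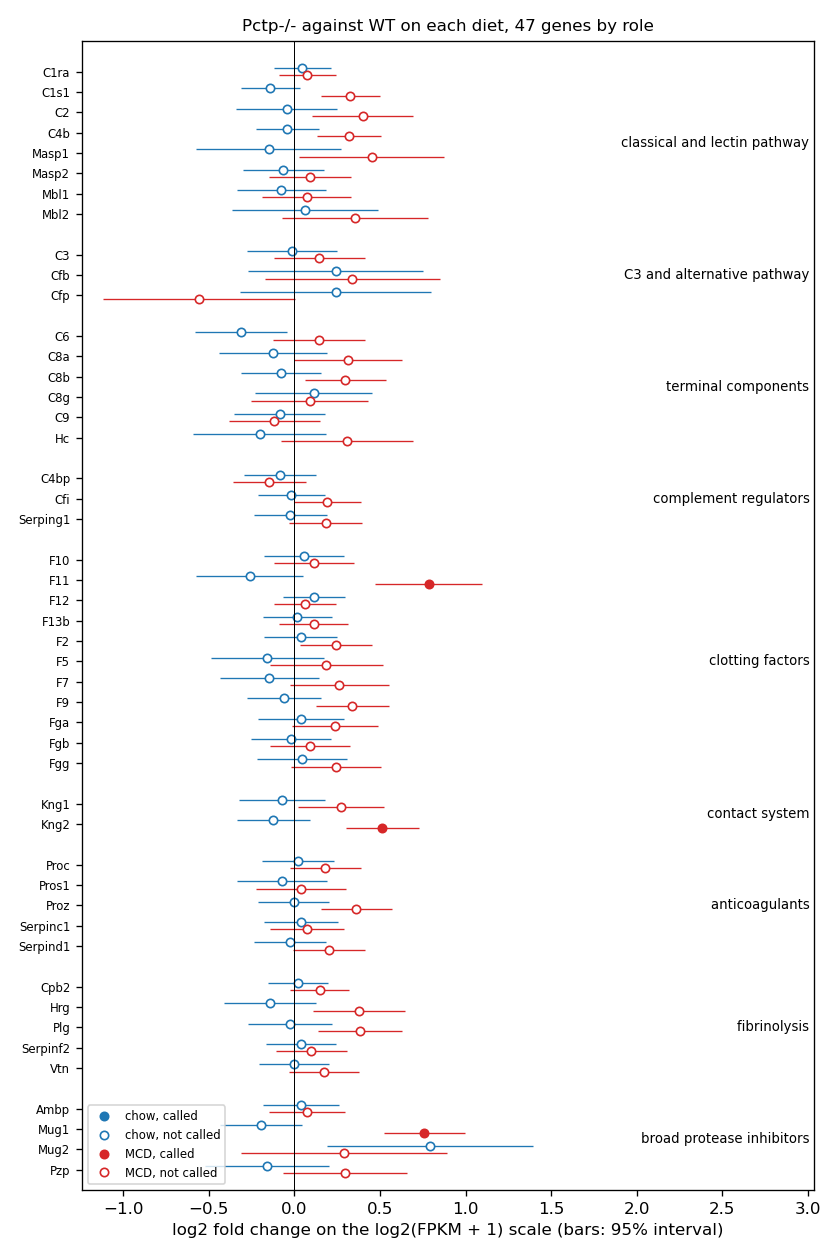
Difference between Pctp-/- and WT livers on the log2(FPKM + 1) scale for the 47 tested members on chow (blue) and on MCD (red), grouped by role. Bars are 95% intervals and filled points passed an adjusted p of 0.05 from limma: 0 members on chow and Mug1, F11 and Kng2 on MCD.

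Mug1 encodes murinoglobulin, a protease-trapping inhibitor of the alpha-2-macroglobulin family that is abundant in mouse plasma. It was at 1019, 968.5 and 872 FPKM in WT and 907, 813 and 778 FPKM in Pctp-/- livers on chow. On MCD it was at 235, 286 and 295.5 FPKM in WT and 468, 481 and 428 FPKM in Pctp-/- livers. The genotypes overlapped on chow, and on MCD every Pctp-/- library was above every WT library and below every chow library. The knockout effect on MCD was 0.76 (SE 0.11, adjusted p = 0.0079 from limma), 1.69-fold in mean FPKM. The diet took Mug1 to 28.5% of chow in WT and 55.1% in Pctp-/- livers, with log2 fold changes of -1.81 (SE 0.11, adjusted p = 1.6e-07 from limma) and -0.86 (SE 0.11, adjusted p = 5.6e-05). The difference of these responses, 0.95 (SE 0.15, adjusted p = 0.049 from limma), made Mug1 the 1 member called there, where 0.0963% of all tested genes were called. That call ended under median-of-ratios scaling and without any of 8 single libraries, namely replicates 1, 2 and 3 of Pctp-/- on MCD, 2 and 3 of Pctp-/- on chow, 2 of WT on MCD, and 2 and 3 of WT on chow.

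Mug1 has close copies, and its values carry that uncertainty. Its longest transcript (4657 bases) is 94.7% identical to Mug2 over 3388 bases and 93.8% identical to Gm7298 over its full length, and how the counting treated reads that match several genes is not given in the sources used here. Mug2, with 15.6 to 20.7 FPKM in WT and 25.1 to 45.1 FPKM in Pctp-/- livers on chow, was far lower than Mug1 in every library and was not called in any comparison. Mug1 lies on chromosome 6 (GRCm38, from 121838541 to 121889057 on the plus strand) and Mug2 downstream of it, from 122006761 to 122085965.

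F11, which encodes factor XI of the contact-activated route, was at 36.2, 44.7 and 45.4 FPKM in WT and 34.7, 33.9 and 35.7 FPKM in Pctp-/- livers on chow. On MCD it was at 34.3, 23.2 and 24.8 FPKM in WT and 41.1, 50.5 and 50.9 FPKM in Pctp-/- livers. Pctp-/- libraries were below those of WT on chow and above them on MCD, with no overlap on either diet. The genotype difference was -0.26 (adjusted p = 0.79 from limma) on chow and 0.78 (SE 0.14, adjusted p = 0.029) on MCD, 1.73-fold in mean FPKM. F11 was the only member called in opposite directions by the diet, at -0.61 (SE 0.14, adjusted p = 0.0032 from limma) in WT and 0.43 (SE 0.14, adjusted p = 0.025) in Pctp-/- livers, where the rise did not pass without Pctp-/- MCD replicate 2 or 3 or chow replicate 2 (adjusted p = 0.068 to 0.085). The difference of the responses, 1.05 (95% interval 0.60 to 1.49), did not pass after adjustment over all genes (adjusted p = 0.069 from limma). The gene lies on chromosome 8 (GRCm38, from 45241174 to 45262031 on the minus strand).

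Kng2, the second mouse kininogen gene, was at 93.9, 110.6 and 118.6 FPKM in WT and 94.6, 96.6 and 104.4 FPKM in Pctp-/- livers on chow. On MCD it was at 100.1, 100.7 and 105.2 FPKM in WT and 133.7, 150.7 and 154.6 FPKM in Pctp-/- livers. The 3 Pctp-/- libraries on MCD were above all 9 others, which overlapped. The knockout effect on MCD was 0.51 (SE 0.10, adjusted p = 0.033 from limma), 1.43-fold in mean FPKM, the diet effect was -0.07 in WT and 0.56 (SE 0.10, adjusted p = 5.2e-04) in Pctp-/- livers, and the difference of the responses was 0.64 (adjusted p = 0.092). Kng2 and Kng1 lie on opposite strands of chromosome 16, and their longest transcripts are 92.1% identical over 1398 bases, so the split of reads between them is uncertain.

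**Figure D5:**
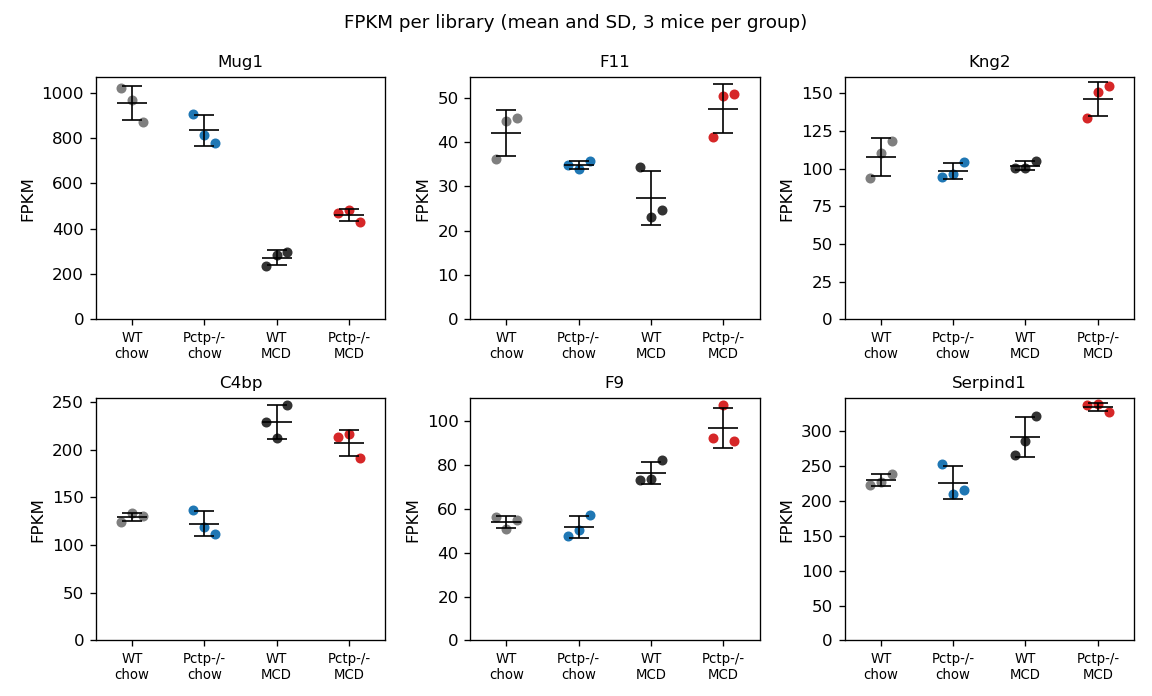
FPKM of the members called between genotypes on MCD (Mug1, F11 and Kng2, upper panels) and of 3 members that rose on MCD in both genotypes (C4bp, F9 and Serpind1, lower panels) in each library (points), with the mean and SD of 3 mice per group (bars). In the upper panels each Pctp-/- MCD library lies above the 3 WT MCD libraries.

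The members next nearest to a call between the genotypes on MCD were not called: C1s1 (0.33, adjusted p = 0.086 from limma), Proz (0.36, adjusted p = 0.10) and C4b (0.32, adjusted p = 0.10) were higher in each Pctp-/- library than in each WT library. They were picked once the values were known, and C1s1 passed after median-of-ratios scaling or quantile normalization (adjusted p = 0.045 and 0.023 from limma). All 11 clotting factors, all 5 anticoagulants, all 5 fibrinolysis genes and all 8 members of the classical and lectin pathway had estimates above 0. The share over all tested genes was 29.7%. The exceptions among the 47 members were Cfp (-0.56), C4bp (-0.15) and C9 (-0.12). The median of the difference in diet response was 0.21 over the members and -0.10 over all tested genes. Of the members, 41 of 47 estimates were above 0, against 4417 of all 12466 tested genes. Serpinf2 and Vtn lie on chromosome 11, 14.5 and 11.5 Mb from Pctp, and neither was called between the genotypes on either diet.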

How the data were processed

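Liver RNA of 12 mice was measured by RNA-seq, and groups were taken from the submitters' labels. The authors deposited FPKM per gene and library, with a second table of read and quality statistics given as counts of reads and percentages. The submitters' processing notes name mm10, and the aligner, counter and strand setting are not given in the sources used here. Symbols came from GENCODE M21 (GRCm38). The members, gene lists, promoter motifs and tests were chosen with earlier results of these data known. Since FPKM values are not counts, limma 3.58.1 in R 4.3.3 was fitted to log2(FPKM + 1) of the 12466 genes averaging 0.5 FPKM or more, with 1 mean per group and a trend of variance on mean. P-values were adjusted by Benjamini-Hochberg over all tested genes, and an adjusted p under 0.05 was called with no minimum fold change. Fold changes on this scale understate the change of low genes. No pair of libraries held identical values.

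Library values are given for members that passed without overlap and were among the 4 largest rises or falls, for members called between genotypes or in response, and for the 3 most abundant. Others are examples by role, and from each further list the 2 largest rises and falls. Transcript identity was computed with blastn 2.17.0. The test was checked on simulated data. Alternatives were the pseudocount, filter, scaling, libraries in the fit, replicate block, trend, robust option, minimum fold change, each library left out and the genes in the FPKM total; leaving out libraries for the share was added after the data were seen. Protein sequences were not used here. A few genes of the further lists are not reported here.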

Additional observations from a re-analysis of the deposited data

Results flagged for a closer look

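Mug1 was singled out because its response to MCD differed between the genotypes in a test of the difference itself. The response in Pctp-/- livers minus that in WT livers was 0.95 on the log2 scale (SE 0.15, adjusted p = 0.049 from limma), from a fall of 1.81 in WT to a fall of 0.86 in Pctp-/- livers. All 3 Pctp-/- MCD libraries were above all 3 WT MCD libraries. Over the alternatives the adjusted p ranged from 0.024 to 0.17, and no alternative turned the direction.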

How the results depend on the processing

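Counts of members changed by the diet were stable but for size: asking for a log2 fold change of at least 1 left 12 of 32 in WT and 7 of 30 in Pctp-/- livers, and leaving out each library gave 30 to 34 and 29 to 33. Over the settings other than leaving out a library, 25 of the 32 calls in WT and 27 of the 30 in Pctp-/- livers were kept in every setting, and 0 turned direction. The members higher in Pctp-/- livers on MCD numbered 3 as reported, 1 with no filter, 0 with only the MCD libraries, 6 with quantile normalization, 0 with a log2 fold change of at least 1, and 0 to 3 when a library was left out. The members with a different MCD response numbered 1 as reported, 0 with median-of-ratios scaling, no filter, no trend, a pseudocount of 0.1 or a minimum fold change, 3 with quantile normalization, and 0 to 3 when a library was left out. Among them, 2 members were called without replicate 1 of WT on MCD and 3 without replicate 1 of WT on chow. On chow the count of members changed by the knockout was 0 under every alternative, and 2 had an unadjusted p under 0.05. For the knockout on MCD, quantile normalization turned the split of all called genes from 37 higher and 65 lower to 69 higher and 41 lower. The cause of these changes was not tested, except that a minimum fold change can only remove calls.

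Replicate numbers are shared between groups but count different mice, and correlations of same-numbered libraries ran from -0.10 to 0.22, so the numbers do not pair the samples. With a replicate block the response was called for 2 members, Mug1 and Kng2, and the other counts of members stayed within 1.5 times. Over all tested genes the block took the response from 5 higher and 7 lower to 29 and 30, and the knockout on chow from 7 and 10 to 12 and 20.

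Without mitochondrially encoded genes in the total, the members' share was 5.41% and 5.30% on chow and 3.59% and 4.13% on MCD in WT and Pctp-/- livers, with the same order of groups. Depth per gene is not given by FPKM, so no counting interval was computed. The labels name no sequencing set. The uniquely mapped share differed between the diets, so an effect of diet and an effect of sequencing cannot be told apart.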
